A study of Canis lupus familiaris with 27 samples.

Results

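The insulin-like growth factor (IGF) axis was examined in canine mammary carcinomas through the ligands IGF1 and IGF2, the receptors IGF1R, IGF2R and INSR, and the binding proteins IGFBP2, IGFBP3, IGFBP4, IGFBP5 and IGFBP6. Every probe set of the array whose single gene symbol is that of a member was taken, which gave 22 probe sets for the 10 genes, of 42860 probe sets and 15115 genes tested. For each gene, the probe set with the highest mean level across the 27 tumors is called its main probe set, and the other probe sets were used to see whether they agreed. Expression levels are log2 values, so that a difference of 1 is a doubling.

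All 27 tumors were invasive simple mammary carcinomas from dogs without prior progestin treatment and without lung metastases visible at surgery. The 13 metastatic tumors came from dogs aged 9 to 16 years whose lymph nodes already held metastases; they measured 0.5 to 5 cm, with 6 tumors in grade II and 7 in grade III. The 14 non-metastatic tumors came from dogs aged 9 to 15 years with free lymph nodes; they measured 2 to 15 cm, and 5 were labelled grade II and 9 grade III. By the study's criteria, non-metastatic tumors were to be of a larger diameter and of grade III, and 1 of them, tumor 12, gave lung metastases later. Tumors are numbered within each group in the order of their records, and the numbers carry no other meaning. The question was whether members of the axis differ with lymph node status, and further with grade and size.

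Both IGFs act through IGF1R, a receptor tyrosine kinase that feeds the PI3K and MAPK pathways, and IGF2 also binds a form of the insulin receptor. IGF2R, the cation-independent mannose 6-phosphate receptor, has no kinase; it carries lysosomal enzymes inside the cell, and at the cell surface it takes up IGF2 for breakdown. The binding proteins hold the IGFs in the extracellular space, prolong their life and limit their access to IGF1R. In the dog, the mammary gland can itself produce growth hormone under progestins, and growth hormone drives IGF1 synthesis.

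By their main probe sets, only IGF2R passed the test between the lymph node groups. Of the 10 genes, 1 was lower and 0 were higher in metastatic tumors at an adjusted p under 0.05 (limma, Benjamini-Hochberg over all probe sets), against 7.9% of all genes called lower and 11.3% called higher. Of the 22 probe sets, 4 were lower and 0 higher, where 11.4% and 9.76% of all probe sets were called. At an unadjusted p under 0.05 the count was 3 of the 10 genes, against 34.4% of all genes, and 8 of the 22 probe sets against 37.7% of all probe sets. The groups overlapped for all 22 probe sets, and 0.103% of all probe sets had groups that did not overlap.

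**Figure D1:**
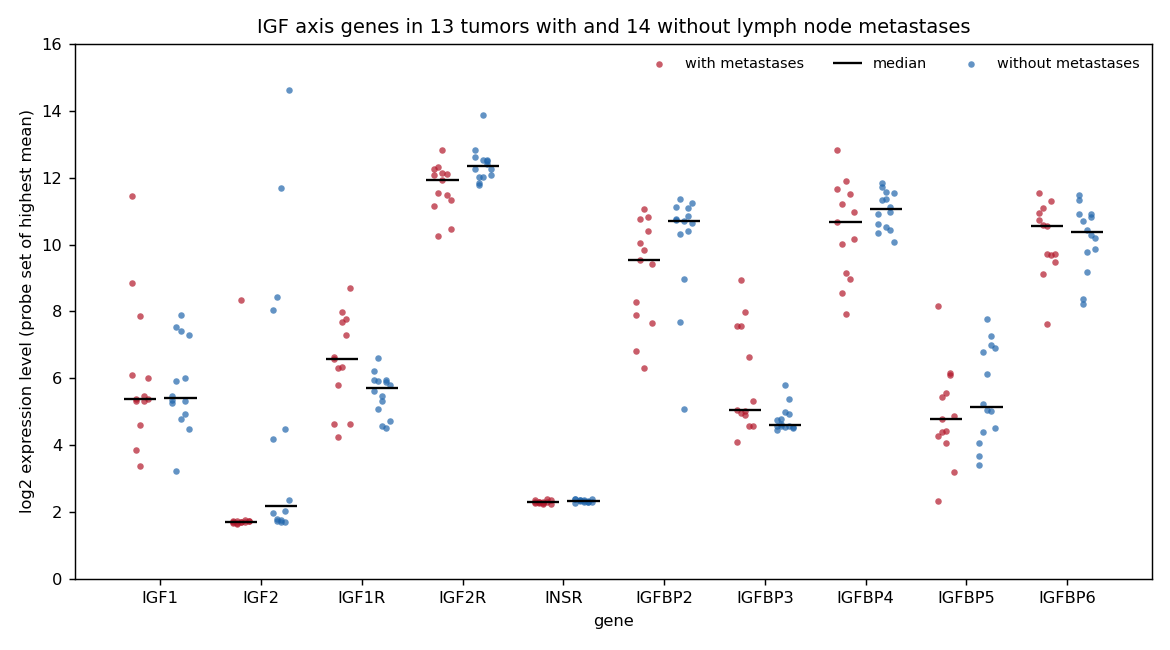
Log2 expression level (vertical axis) of the main probe set of each IGF axis gene (horizontal axis) in 13 metastatic (red) and 14 non-metastatic (blue) tumors; each point is a tumor and each black line a group median. IGF2R shows the lower metastatic group (median 11.93 against 12.34), IGF2 is high in few tumors, and INSR stays near 2.3 in all.

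Several properties of the arrays moved with lymph node status, and their part in the differences below was not tested except where a value is given. Upper quartiles of the arrays averaged 7.93 ± 0.04 (SD) over the 13 metastatic tumors, against 7.76 ± 0.15 over the 14 others. The 3′ minus 5′ difference of the GAPDH control, a sign of RNA quality, was 1.84 ± 0.32 and 1.32 ± 0.42, while a second GAPDH control gave 0.071 and 0.073. The letter T closes the names of 11 metastatic and 0 non-metastatic samples, and its meaning is not given. After centring of the arrays on their medians, 1824 genes were called higher and 636 lower, against 1705 and 1194 in the values as deposited. In bulk tissue, fewer cells of a type and less RNA per cell cannot be told apart.

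Markers of epithelium were high in both groups, with a mean level of EPCAM, CDH1, KRT7, KRT8 and KRT18 of 11.57 ± 1.16 and 11.26 ± 1.54 and 0 of 5 markers called. The mean level of 8 smooth muscle and myoepithelium markers ranged from 6.42 to 9.19 in metastatic and from 7.35 to 10.55 in non-metastatic tumors, with MYH11, CNN1 and MYLK called lower. This list is called smooth muscle below for short, though it also covers myoepithelium. The 10 fibroblast markers had 0 calls, though all 10 differences were positive, and their mean level ranged from 9.13 to 13.06 and from 6.56 to 11.97. Endothelium had 2 of 7 markers higher and 1 lower, macrophages 1 of 7 higher, and adipocytes, T cells and B and plasma cells 0 of 6, 0 of 6 and 0 of 4.

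Of the ligands, IGF1, the growth hormone dependent IGF, did not pass the test. Its main probe set lay at a lowest of 3.38, a median of 5.39 and a highest of 11.44 in metastatic tumors, and at 3.23, 5.41 and 7.88 in non-metastatic tumors. The medians nearly coincided and the groups overlapped over most of their range, but metastatic tumors 1 (11.44) and 6 (8.86) exceeded all non-metastatic ones. The difference was 0.30 with a 95% interval of -1.09 to 1.68 (limma, adjusted p = 0.765). The second IGF1 probe set gave 0.73 (-0.87 to 2.34, adjusted p = 0.499).

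IGF2, the fetal growth factor of the pair, was high in single tumors and low in most. In metastatic tumors its only probe set had a lowest of 1.65, a median of 1.71 and a highest of 8.33, and in non-metastatic tumors 1.69, 2.18 and 14.62. Only metastatic tumor 8 exceeded a level of 3, and the other 12 lay between 1.65 and 1.75, whereas 6 of 14 non-metastatic tumors exceeded 3. Those 6 were tumors 10 (14.62), 8 (11.70), 2 (8.44), 6 (8.04), 9 (4.48) and 11 (4.17). The other 8 lay at 1.69 to 2.35, of which 3 were within the range of the 12 low metastatic tumors and 5 above it. The difference of means was -2.53 (-5.12 to 0.06) and did not pass in limma (adjusted p = 0.141). An exact rank-sum test, chosen after the values were seen, gave an adjusted p = 0.0151 over all probe sets, with 12 of 13 metastatic tumors under the non-metastatic median. IGF2 was not alone in passing that test. The second brightest IGF1R probe set (adjusted p = 0.0472) and the dimmest of IGFBP5 (0.0425) and IGFBP4 (0.0080) also passed, besides IGF2R probe sets given below. The share of all probe sets passing it is not given here. With the smooth muscle marker level as a covariate the IGF2 difference was -0.27 (adjusted p = 0.914 in limma).

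IGF1R, the signalling receptor, had a wider spread among metastatic tumors, with an SD of 1.40 against 0.63. Its main probe set had a lowest of 4.24, a median of 6.58 and a highest of 8.69 in metastatic tumors, and 4.51, 5.70 and 6.60 in non-metastatic tumors. For this probe set, 6 metastatic tumors lay above all non-metastatic ones and 1 lay below them, so the groups overlapped in the middle. The difference was 0.96 (0.13 to 1.79, SE 0.40) and did not pass (adjusted p = 0.0856), although 10 of 13 metastatic tumors exceeded the non-metastatic median. The second brightest probe set gave 0.86 (0.19 to 1.54, adjusted p = 0.0595), with 11 of 13 tumors on that side. Without metastatic tumor 1, 10 or 12 the main probe set passed (difference 1.12 to 1.15, adjusted p between 0.0366 and 0.0452). It was called in 3 of 27 such fits, with adjusted p up to 0.150. Of 17 other settings it was called in 1, with adjusted p up to 0.833. Its difference was -0.33 with the name ending as a block.

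The remaining pair of IGF1R probe sets lay near 2 in all but 1 tumor. Metastatic tumor 5, the smallest at 0.5 cm, had 5.03 and 5.19 there, and also the highest level on both brighter probe sets, 8.69 and 6.82. The other tumors lay between 2.00 and 2.99. The differences of the pair were 0.24 (adjusted p = 0.423) and 0.32 (adjusted p = 0.261).

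IGF2R was lower in metastatic tumors on all 3 of its probe sets. The study also measured this gene by qPCR under the name IGFR2, and the primer pair is shown because it names the assay for the one member called here; the sequences are 5′ to 3′ from the supplementary methods, the probe sequences of the array were not used here, and the qPCR values were not analysed here.
IGF2R forward primer: attacaggcaccaggatgaa
IGF2R reverse primer: ctcgtagctcttcccattga

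On the main IGF2R probe set, metastatic tumors had a lowest of 10.27, a median of 11.93 and a highest of 12.84, and non-metastatic tumors 11.79, 12.34 and 13.86. The lowest were metastatic tumors 12 (10.27) and 10 (10.46), 6 metastatic tumors lay below all non-metastatic ones, and 12 of 13 lay under the non-metastatic median. The groups overlapped between 11.79 and 12.84, where 7 metastatic and 13 non-metastatic tumors lay. The difference was -0.70 (-1.20 to -0.21, SE 0.24, adjusted p = 0.0396).

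The second IGF2R probe set had 9.65, 11.18 and 12.21 as lowest, median and highest in metastatic and 11.20, 11.86 and 13.31 in non-metastatic tumors. Here 7 metastatic tumors lay below all non-metastatic ones, and the difference was -1.04 (-1.56 to -0.53, SE 0.25, adjusted p = 0.0059). The dimmest of them had 8.41, 9.90 and 11.01 against 9.87, 10.53 and 12.35. Its difference was -0.91 (-1.47 to -0.35, SE 0.27, adjusted p = 0.0204), with 11 of 13 metastatic tumors under the non-metastatic median. Tumors 12 and 10 were the lowest metastatic and tumor 8 the highest non-metastatic on each of the 3.

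The main IGF2R call was close to the threshold, and the other probe sets had smaller adjusted p. Without any one of metastatic tumors 5, 7, 9, 10, 11 and 12 or non-metastatic tumors 1, 3, 8, 9, 11 and 14 the main probe set missed it (difference -0.70 to -0.59, adjusted p between 0.0501 and 0.0644), whereas the other two passed in 27 of 27 such fits, at an adjusted p of at most 0.0113 and 0.0355. With size, smooth muscle markers, the GAPDH difference or the upper quartile as a covariate, all 3 probe sets missed the threshold. Calls over all genes also fell in these fits, to between 214 and 603 higher and between 135 and 407 lower, from 1705 and 1194. An exact rank-sum test chosen after the values were seen gave adjusted p of 0.0704 for the main, 0.0053 for the second and 0.0244 for the dimmest probe set, and centring of the arrays gave -0.66 for the main one (adjusted p = 0.0759). With tumor size as a covariate the difference of the main probe set was -0.56 (adjusted p = 0.276), with smooth muscle markers -0.35 (adjusted p = 0.441), with the GAPDH difference -0.58 (adjusted p = 0.194) and with the upper quartile -0.84 (adjusted p = 0.120). The second probe set had -0.84 (adjusted p = 0.109), -0.80 (adjusted p = 0.120), -0.89 (adjusted p = 0.0711) and -0.997 (adjusted p = 0.0749) in the same order. The dimmest had -0.79 (adjusted p = 0.173), -0.52 (adjusted p = 0.306), -0.78 (adjusted p = 0.129) and -0.83 (adjusted p = 0.185). Blocked on whether a name closes with T, the 3 differences were -0.19 (adjusted p = 0.843), -0.35 (adjusted p = 0.717) and -0.41 (adjusted p = 0.698), and only metastatic tumors 1 and 2 share a name type with the non-metastatic ones.

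**Figure D2:**
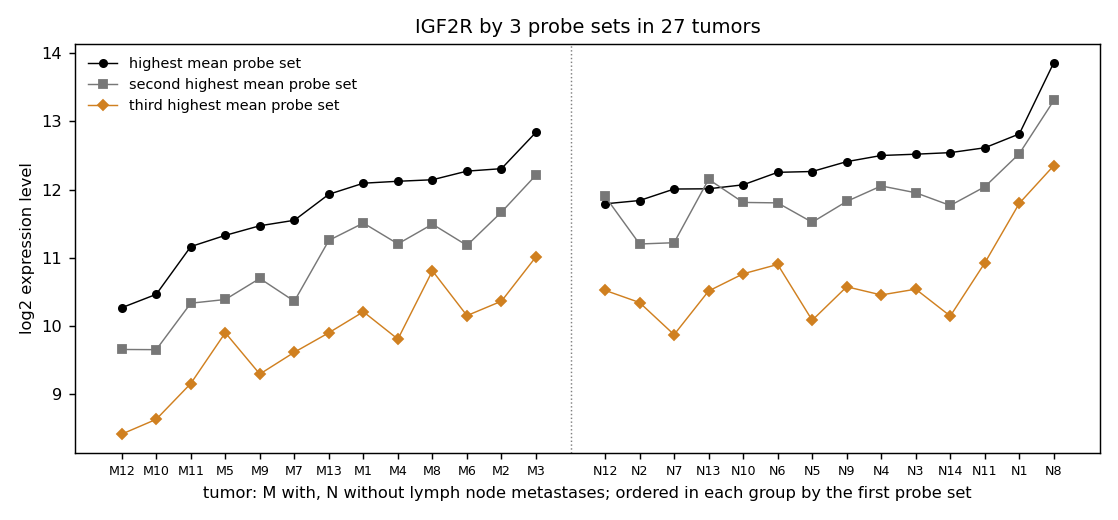
Log2 expression level (vertical axis) of IGF2R by its 3 probe sets in each tumor (horizontal axis; M metastatic, N non-metastatic, with the tumor's number), ordered within each group by the main probe set; each line joins the values of 1 probe set. Tumors low or high on one probe set are mostly so on the others, with more crossing among the non-metastatic tumors in the middle; values run from 10.27 in M12 to 12.84 in M3 and from 11.79 in N12 to 13.86 in N8 on the main probe set.

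INSR, the insulin receptor, showed almost no variation on this array. Its main probe set had a lowest of 2.23, a median of 2.29 and a highest of 2.39 in metastatic and 2.26, 2.33 and 2.40 in non-metastatic tumors. All 27 tumors thus lay within 0.165 of each other, and the difference was -0.04 (adjusted p = 0.221). On its second probe set it was -0.004 (adjusted p = 0.945), and the 2 probe sets did not follow each other (Pearson r = 0.10 in metastatic and -0.27 in non-metastatic tumors). Whether INSR RNA was above background could not be read from these values.

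None of the 5 binding proteins passed on its main probe set, and 4 of the 5 differences were below 0, with a median of -0.60. IGFBP3, the main carrier of IGFs in blood, was the exception in direction. It had a lowest of 4.09, a median of 5.05 and a highest of 8.94 in metastatic tumors and 4.46, 4.60 and 5.80 in non-metastatic tumors. Above all non-metastatic tumors lay 5 metastatic ones, namely 7 (8.94), 3 (7.99), 12 (7.57), 1 (7.55) and 9 (6.64), while the other 8 overlapped or lay below them. The difference was 1.16 (0.28 to 2.03, SE 0.43) and just missed the threshold (adjusted p = 0.0538), with 10 of 13 tumors above the non-metastatic median and an SD of 1.58 against 0.38. It passed without metastatic tumor 2, 4, 10, 11 or 13 or without non-metastatic tumor 8 (difference 1.23 to 1.31, adjusted p between 0.0313 and 0.0479), and with grade as a covariate (1.22, adjusted p = 0.0416). Over the 27 fits without 1 tumor it was called in 6, with adjusted p up to 0.0893. Of 17 other settings it was called in 3, with adjusted p up to 0.531.

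IGFBP2, a binding protein with a preference for IGF2, had a lowest of 6.30, a median of 9.55 and a highest of 11.05 in metastatic and 5.08, 10.72 and 11.36 in non-metastatic tumors. Most non-metastatic tumors were packed between 10.31 and 11.36, with tumors 8 (5.08), 12 (7.68) and 13 (8.96) below, so the groups overlapped. The difference was -0.93 (-2.23 to 0.36, adjusted p = 0.278), with 10 of 13 metastatic tumors under the non-metastatic median. Non-metastatic tumor 8 was thus the lowest of all in IGFBP2 and the highest in IGF2R.

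IGFBP4, which mostly inhibits IGF action, had 7.93, 10.69 and 12.83 as lowest, median and highest in metastatic and 10.09, 11.05 and 11.85 in non-metastatic tumors. Metastatic tumors spread to both sides, with 5 below and 2 above all non-metastatic ones, and the SDs were 1.45 and 0.56. The difference was -0.60 (-1.44 to 0.24, adjusted p = 0.284). A second probe set that followed the main one gave -0.03 (-1.03 to 0.97, adjusted p = 0.970). The dimmest passed the test at -0.07 (-0.12 to -0.03, adjusted p = 0.0267), but its 27 values lay between 1.84 and 2.11 and did not follow the main probe set (r = -0.07 in metastatic and -0.24 in non-metastatic tumors).

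IGFBP5, which binds matrix and is known from mammary involution, had 2.33, 4.77 and 8.15 in metastatic and 3.41, 5.14 and 7.79 in non-metastatic tumors as lowest, median and highest. The groups overlapped widely, with metastatic tumor 1 highest and metastatic tumor 11 lowest, and the difference was -0.62 (-1.74 to 0.51, adjusted p = 0.415). Its other probe sets gave -0.08 (adjusted p = 0.0863) and -0.26 (adjusted p = 0.185). In the reference annotation (UU_Cfam_GSD_1.0) IGFBP2 and IGFBP5 are direct neighbours. Their levels had r = 0.16 in metastatic tumors (rho = 0.46, permutation adjusted p = 0.905 for r). Without the 2 metastatic tumors farthest from the median of IGFBP2, r was 0.77. In non-metastatic tumors r was -0.003 (rho = -0.38, permutation adjusted p = 0.993 for r).

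IGFBP6, which prefers IGF2, had 7.63, 10.56 and 11.55 in metastatic and 8.22, 10.36 and 11.47 in non-metastatic tumors as lowest, median and highest. The groups covered the same range, and the difference was -0.02 (-0.83 to 0.79, adjusted p = 0.978). The second probe set gave 0.54 (-0.53 to 1.61, adjusted p = 0.453).

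**Figure D3:**
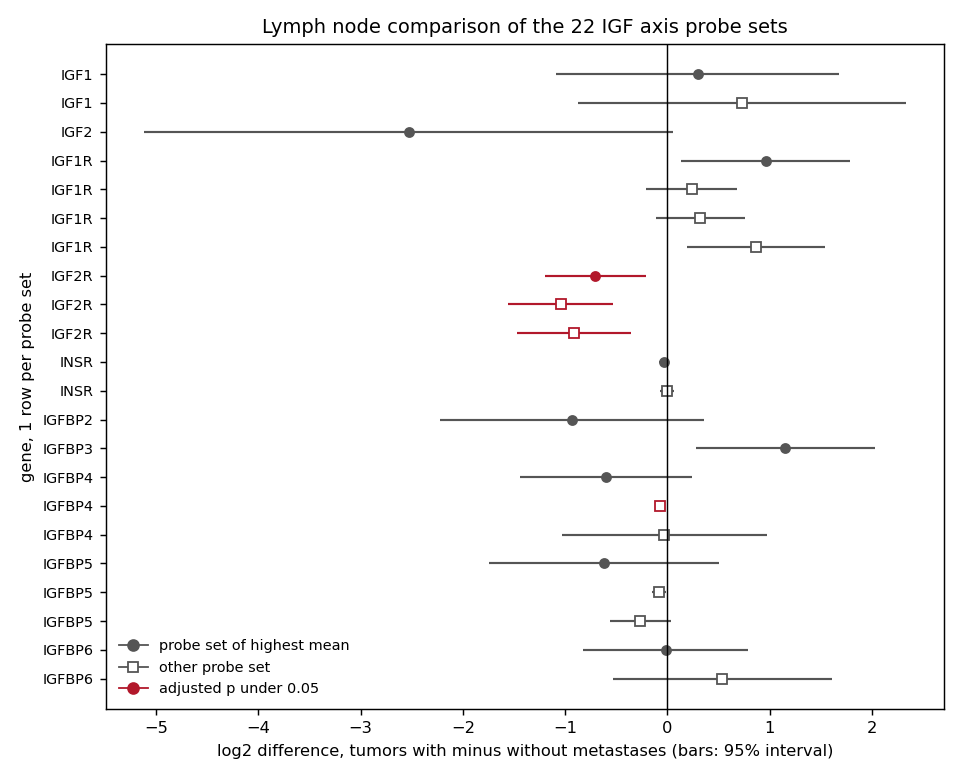
Difference in log2 expression level between metastatic and non-metastatic tumors (horizontal axis) for each of the 22 probe sets (vertical axis, by gene), with 95% intervals as bars; filled circles are main probe sets, open squares the others, and red marks an adjusted p under 0.05. The 3 IGF2R probe sets lie at -0.70 to -1.04, and the red IGFBP4 probe set at -0.07 is the dim one.

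Agreement between probe sets of a gene was measured within each lymph node group, over 18 pairs and 36 relations, of which 17 passed (permutation test of Pearson r, adjusted p under 0.05). The 3 IGF2R probe sets had r of 0.93 to 0.97 in metastatic tumors (Spearman rho 0.89 to 0.91) and 0.79 to 0.90 in non-metastatic tumors (rho 0.54 to 0.68). Their largest adjusted p was 0.0058 for r and 0.0936 for rho, and r without the 2 tumors farthest from the median stayed between 0.55 and 0.95. The IGF1 pair had r of 0.96 and 0.91 and the IGFBP6 pair 0.97 and 0.95, each with the smallest p that 100000 permutations can give, 1e-05 (adjusted p = 4.5e-05).

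The brighter IGF1R probe sets agreed in metastatic tumors (r = 0.91, rho = 0.89, p = 2e-05, adjusted p = 7.2e-05) but had r = 0.21 (rho = 0.33, adjusted p = 0.630) in non-metastatic tumors, where IGF1R spanned 4.51 to 6.60. Whether the 2 correlations differ was not tested. The brighter IGFBP4 probe sets had r of 0.96 and 0.81 and the brighter IGFBP5 probe sets 0.80 and 0.57 (adjusted p = 0.0574 for the last). Every relation of a probe set whose values lay near 2 with a brighter one of the same gene failed the test, except for 3 relations of IGF1R in metastatic tumors, where tumor 5 was high on all 4 probe sets. Without the 2 tumors farthest from the median, r in those 3 was 0.45, 0.71 and 0.79.

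Between genes, 45 pairs were examined in each group, 90 relations in all, and 1 passed. IGFBP4 and IGFBP6 were correlated in metastatic tumors (r = 0.86, p = 0.00014, adjusted p = 0.0126; rho = 0.79, p = 0.00215, adjusted p = 0.0645; r without the 2 farthest tumors 0.75). In non-metastatic tumors the same pair had r = -0.52 (rho = -0.47, adjusted p = 0.660 for r), and whether the groups differ was not tested. IGF1 and IGFBP4 had r = 0.75 in metastatic tumors (p = 0.00185, adjusted p = 0.0832) with rho = 0.85 (adjusted p = 0.0468). Their r in non-metastatic tumors was 0.11 (rho = 0.14, permutation adjusted p = 0.905 for r). No r is given for IGF2, since most of its levels were low and the others were widely spread.

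**Figure D4:**
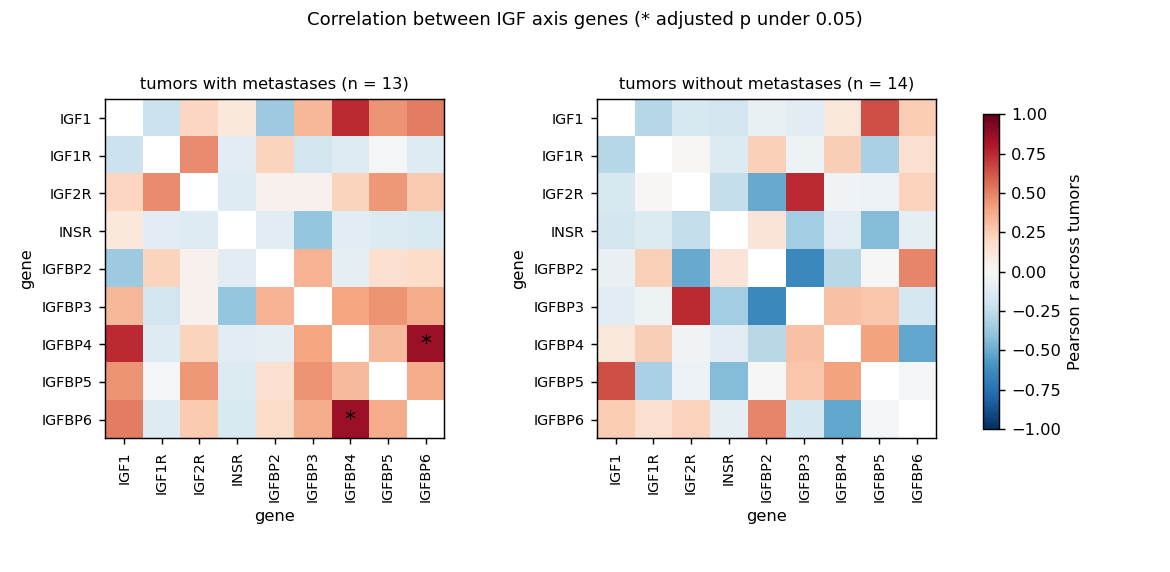
Pearson r between main probe sets of 9 IGF axis genes (both axes) across 13 metastatic (left) and 14 non-metastatic (right) tumors, red positive and blue negative. IGF2 is left out because most of its values were low and the others widely spread. An asterisk marks an adjusted p under 0.05. The single marked pair is IGFBP4 with IGFBP6 in metastatic tumors (r = 0.86).

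In metastatic tumors, both of these binding proteins were also correlated with the fibroblast markers and with the smooth muscle and myoepithelium markers. Of 160 relations between a member and the mean level of a marker list, an examination added after the data were seen, 7 passed. In metastatic tumors IGFBP4 had r = 0.90 with endothelium (rho = 0.91, adjusted p = 0.00704 for r), 0.86 with fibroblasts (rho = 0.87) and 0.81 with smooth muscle (rho = 0.77). IGFBP6 had r = 0.89 with smooth muscle (rho = 0.84) and 0.86 with fibroblasts (rho = 0.73) in metastatic tumors, and 0.80 with epithelium (rho = 0.66, adjusted p = 0.0131 for r) in non-metastatic tumors. In non-metastatic tumors IGFBP4 had r = -0.55 with smooth muscle (rho = -0.58, adjusted p = 0.287 for r), 0.12 with fibroblasts and 0.20 with endothelium, and IGFBP6 had 0.52 with smooth muscle and 0.08 with fibroblasts, none passing. The seventh was IGF1 with endothelium in metastatic tumors (r = 0.83, rho = 0.77, adjusted p = 0.00704 for r). IGF2R had no relation that passed, with r of 0.28 and 0.42 with smooth muscle and 0.16 and -0.73 with fibroblasts in metastatic and non-metastatic tumors, the last 0.22 without the 2 farthest tumors. With T cell markers it had r = -0.10 in metastatic and -0.71 in non-metastatic tumors. The latter had rho = -0.77 (permutation adjusted p = 0.287 for r, 0.0562 for rho) and r = -0.62 without the 2 farthest tumors.

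Neither grade nor size gave a call. Between grade III and grade II, with lymph node status in the model, 0 of 10 members and 0% of all genes passed, and at an unadjusted p under 0.05 it was 0 members and 5.85% of genes, and 0 of the 22 probe sets against 5.27% of all probe sets (limma). The largest member differences were -0.87 for IGF1 (-2.28 to 0.53), 0.78 for IGFBP2 (-0.53 to 2.10) and 0.66 for IGFBP3 (-0.21 to 1.54), each with an adjusted p = 0.781. IGF2R differed by -0.01 (-0.53 to 0.50) and IGF1R by 0.00 (-0.87 to 0.87).

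IGFBP2 had the smallest unadjusted p among the main probe sets for an interaction of grade and lymph node status, which did not pass after adjustment. Metastatic grade II tumors had a mean of 7.99 ± 1.40 (SD, n = 6) and metastatic grade III tumors 10.13 ± 0.97 (SD, n = 7). Non-metastatic tumors had 10.45 ± 0.85 (SD, n = 5) in grade II and 9.86 ± 2.11 (SD, n = 9) in grade III. The metastatic grade II group thus stood lowest, with 6 tumors between 6.30 and 9.84. The interaction of grade and lymph node status was 2.72 (0.29 to 5.16, limma unadjusted p = 0.0297) and did not pass over all probe sets (adjusted p = 1.00), where 0% of genes passed and 2.66% had an unadjusted p under 0.05. Of the 22 member probe sets, 1 had an unadjusted interaction p under 0.05, against 2.09% of all probe sets.

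**Figure D5:**
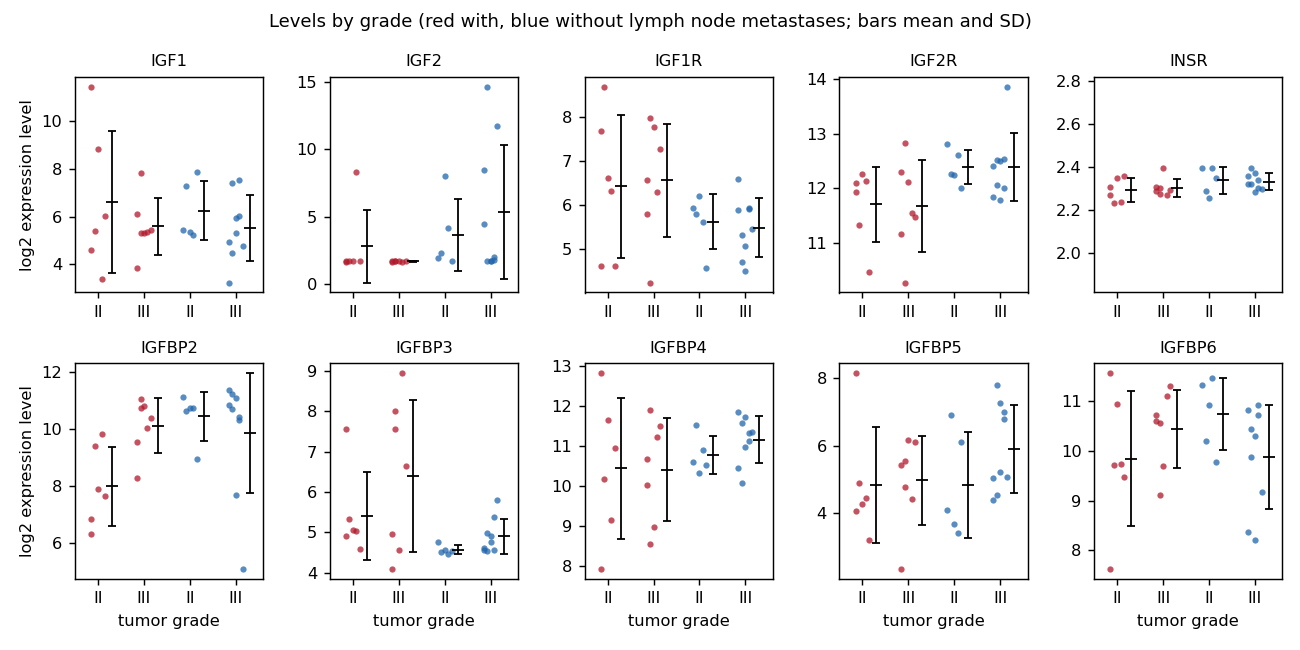
Log2 expression level (vertical axes, each with its own scale) of the main probe set of each IGF axis gene by tumor grade (horizontal axes) in metastatic (red) and non-metastatic (blue) tumors; points are tumors, black bars mean and SD. Metastatic grade II tumors are lowest in IGFBP2 (mean 7.99), and IGF2 is at 1.65 to 1.75 in all 7 metastatic grade III tumors.

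For tumor size, slopes are per doubling of the diameter with lymph node status in the model, and 0 of 10 members and 0% of genes passed, while 7.75% of genes had an unadjusted p under 0.05. IGF2 had the steepest slope, 0.74 (-0.75 to 2.24, adjusted p = 0.739), and the slope was -0.22 without the 15 cm tumor, the one with an IGF2 level of 14.62. IGF2R had 0.13 (-0.16 to 0.42) and IGF1R -0.27 (-0.75 to 0.21). The dim IGF1R probe sets had -0.28 and -0.30 (unadjusted p = 0.0209 and 0.0105, adjusted p = 0.636 for both), with the 0.5 cm tumor 5 alone at a high level. A slope that differs between the groups was called for 0 members, against 0.00662% of genes and 0.00233% of probe sets. An unadjusted p under 0.05 for it was seen in 1 of the 22 member probe sets and in 7.62% of all probe sets.

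Beyond the members, 83 of 91 listed genes of the pathway were measured, of which 6 were higher and 7 lower in metastatic tumors, with a median difference of -0.0004 against -0.002 over all genes. The background is the same 11.3% higher and 7.9% lower. With arrays centred on their medians the split was 9 higher and 3 lower. Over all 15115 genes, that setting moved the calls from 1705 higher and 1194 lower to 1824 and 636.

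The PI3K, AKT and TOR genes were the largest part of the list, with 26 of the 83 genes, and had 3 higher and 4 lower. Over all genes, 11.3% were called higher and 7.9% lower, together 19.2%. PIK3R1, the regulatory p85 subunit of PI3K, had the smallest adjusted p: it ranged over 8.78, 10.05 and 11.84 (lowest, median, highest) in metastatic and 11.09, 11.67 and 12.23 in non-metastatic tumors, a difference of -1.52 (SE 0.24, adjusted p = 0.000281), with 12 of 13 tumors under the non-metastatic median. The catalytic subunits PIK3CA (1.35, SE 0.42, adjusted p = 0.0261) and PIK3CB (1.16, SE 0.34, adjusted p = 0.0187) were higher, each in 13 of 13 tumors against the non-metastatic median. EIF4E, the cap-binding translation factor, was higher by 0.68 (adjusted p = 0.00417). TSC2, an inhibitor of TOR, was lower (-0.62, adjusted p = 0.0221), as were FOXO1, a transcription factor held back by AKT (-0.70, adjusted p = 0.0349), and INPPL1, a lipid phosphatase (-0.79, adjusted p = 0.0379). AKT1 had 0.77 (adjusted p = 0.0732) and PIK3R2 -0.77 (adjusted p = 0.240), neither passing.

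Among 13 receptor substrates and adaptors, PTPN11, the phosphatase SHP2, was higher (0.81, adjusted p = 0.0106) and no gene was lower. For PTPN11, 13 of 13 metastatic tumors exceeded the non-metastatic median, though the groups overlapped. The adaptors GRB2 (1.14, adjusted p = 0.0785) and SHC1 (-0.85, adjusted p = 0.0538) did not pass. Of 9 RAS and MAPK genes, HRAS was higher (1.39, adjusted p = 0.0101) and BRAF lower (-0.80, adjusted p = 0.0213). Against the non-metastatic median, 13 of 13 metastatic tumors were higher in HRAS and 12 of 13 lower in BRAF, with overlapping groups. Of 9 genes of the growth hormone axis, SOCS3, a feedback inhibitor, was higher by only 0.11 with values of 2.12 to 2.60 (adjusted p = 0.0481), and the prolactin receptor PRLR, named after its values were seen, was lower (-1.95, adjusted p = 0.0481).

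Of 11 genes of mannose 6-phosphate sorting, the route in which IGF2R works, AP1G1, a subunit of its adaptor complex, was lower (-0.50, adjusted p = 0.0342) and none was higher. The 12 other binding proteins, proteases and carriers and the 3 IGF mRNA binding proteins had 0 calls. Without single tumors, PRLR missed the threshold in 20 and SOCS3 in 19 of 27 fits, and FOXO1, INPPL1 and AP1G1 in 8 each, with adjusted p up to 0.0852.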

How the data were processed

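RNA of 27 canine mammary carcinomas was measured on Affymetrix Canine Genome 2.0 arrays, 1 per tumor. The authors imported the scans into Partek Genomic Suite and ran its gcRMA workflow, which corrects the background, quantile-normalizes and summarizes probe sets. The values the authors deposited are log2 levels without detection calls and were used unchanged. Precision is limited by how many arrays there are.

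Of 43035 probe sets, 175 controls were left out; 29254 of the rest carry 1 gene symbol in the platform annotation, 439 several and 13167 none. Groups came from the lymph node labels. Groups were compared with limma 3.58.1 under R 4.3.3, by moderated linear models with Benjamini-Hochberg adjustment over 42860 probe sets and a threshold of 0.05, in place of the study's analysis of variance with q-values, which was run as an alternative with Benjamini-Hochberg adjustment. Grade and log2 size were fitted with lymph node status, and their interactions with it. Correlations used 100000 permutations within a group. The code was tested on simulated data. The members and gene lists were chosen with earlier results of these data known. Named were all members with every probe set and, of the pathway list, up to 6 genes higher and 6 lower of smallest adjusted p, 4 of largest difference not passing, and 3 genes most correlated with each member, not given for IGF2. Other settings tried were another test, weighting and rescaling of arrays, a filter on dim probe sets, another choice of probe set, added covariates, subsets of tumors and the omission of each tumor. qPCR and immunohistochemistry were not analysed here. Plots were drawn with matplotlib 3.10.9.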

Additional observations from a re-analysis of the deposited data

Results flagged for a closer look

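A total of 6 levels stood apart from the other tumors of the same lymph node status and grade, by the size of the gap to the nearest tumor relative to the range, among 40 groups of 5 to 9 tumors examined. The critical values used mark about 1 in 20 such groups by chance when values are normally distributed. Whether that rate holds for these values was not tested. The causes were not tested.

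IGF2 was 8.33 in metastatic tumor 8, with the other 5 metastatic grade II tumors at 1.68 to 1.74. IGF2R was 13.86 in non-metastatic tumor 8, with the other 8 non-metastatic grade III tumors at 11.79 to 12.54. IGFBP3 was 7.55 in metastatic tumor 1, against 4.58 to 5.33 in the other metastatic grade II tumors, and IGFBP5 was 8.15 in the same tumor, against 3.19 to 4.88. IGFBP2 was 8.96 in non-metastatic tumor 13, the smallest of its group at 2 cm, against 10.65 to 11.13 in the other 4 non-metastatic grade II tumors. INSR was 2.39 in metastatic tumor 4, against 2.27 to 2.31 in the other metastatic grade III tumors, a gap within the narrow range of that probe set.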

How the results depend on the processing

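The count of 1 axis gene called by lymph node status was 3 with array weights, 2 among brighter probe sets and with grade as a covariate, and 0 with arrays centred on their medians, with the upper quartile, size, age, smooth muscle markers, fibroblast markers or the GAPDH difference as a covariate, with the name ending as a block, and in grade III, grade II or 2 to 5 cm tumors alone. Leaving out single tumors gave 0 to 2. It was 0 without non-metastatic tumor 1, 3, 9, 11 or 14 or metastatic tumor 5, 7 or 9, and 2 without metastatic tumor 1, 2, 4, 10 or 13. The 13 pathway genes called became 21 with array weights, 7 with the upper quartile, 2 with size or smooth muscle markers, 4 with the GAPDH difference, 0 with the name ending or in grade III, 1 in grade II and 2 in 2 to 5 cm tumors, and 8 to 14 without single tumors. Calls over all 15115 genes also changed with the setting, from 1705 higher and 1194 lower in the main fit. They were 439 and 407 with the upper quartile, 362 and 135 with size, and 214 and 234 with smooth muscle markers. The GAPDH difference left 603 and 372, the name ending 11 and 0. Grade III alone gave 195 and 143, grade II 147 and 67, and 2 to 5 cm 365 and 152. With age they were 1422 and 883, with fibroblast markers 1655 and 990. Counts of axis genes called for grade, size and both interactions were 0 under every setting run. Among all 15115 genes, size in cm instead of its log2 gave 157 higher and 9 lower. The causes of these changes were not tested. Between member and marker list, 7 relations passed by Pearson and 4 by Spearman, of which 3 passed by both (IGFBP4 with endothelium and fibroblasts, IGFBP6 with smooth muscle, in metastatic tumors); the other was IGF2 with fibroblasts in non-metastatic tumors.

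Signs turned only for differences that did not pass. For lymph node status these were IGF1 with array weights (-0.20) and fibroblast markers (-0.32), IGF1R with the name ending (-0.33), INSR after quantile normalization (0.0032), centring (0.011) and the upper quartile (0.0050), IGFBP2 in grade III (0.26), IGFBP4 with the name ending (0.40) and smooth muscle markers (0.15), IGFBP5 with the name ending (1.27) and the GAPDH difference (0.061), and PIK3R2 with smooth muscle markers (0.18). IGFBP6 turned with centring (0.030), the probe set of largest variance (0.54), the mean of probe sets (0.26), size (0.25), age (0.0063), the name ending (0.90), smooth muscle markers (1.22), the GAPDH difference (0.12), grade III alone (0.57) and 2 to 5 cm alone (0.31).

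For grade, IGF2 turned with the grade in the study's list of dogs (-0.14), size (-0.066) and metastatic tumors alone (-1.12), IGF2R with that grade (0.054) and in non-metastatic tumors (0.0018), IGF1R (-0.14) and IGFBP2 (-0.58) in non-metastatic tumors, INSR after quantile normalization (-0.016), with size (-0.00510) and in non-metastatic tumors (-0.00516), IGFBP4 in metastatic tumors (-0.035), and IGFBP6 with the listed grade (0.049) and in metastatic tumors (0.60). The grade interaction turned for IGF2R with size (0.021) and INSR with the listed grade (-0.0044). For size, IGF1 turned in cm (-0.045) and in non-metastatic tumors (-0.31), as did IGFBP3 (0.13), IGFBP4 (-0.069) and IGFBP6 (-0.040) there, and IGF2 without the 15 cm tumor (-0.22). The size interaction turned without that tumor for IGF2 (1.73), INSR (0.0089), IGFBP2 (0.27) and IGFBP5 (-0.13), for INSR in cm (0.0041) and after quantile normalization (0.014), and for IGFBP2 in cm (0.082) and with grade (0.082).

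Without single tumors, lymph node differences ranged over -0.15 to 0.52 for IGF1 and -0.17 to 0.19 for IGFBP6. Grade differences ranged over -0.30 to 0.89 for IGF2, -0.18 to 0.21 for IGF1R, -0.13 to 0.10 for IGF2R, -0.0053 to 0.011 for INSR, -0.057 to 0.41 for IGFBP4 and -0.38 to 0.0088 for IGFBP6, and grade interactions over -0.92 to 0.70 for IGF1, -0.090 to 0.72 for IGF1R, -0.28 to 0.20 for IGF2R and -0.92 to 0.059 for IGFBP4. Size slopes ranged over -0.084 to 0.24 for IGF1, -0.22 to 0.95 for IGF2, -0.019 to 0.24 for IGFBP2 and -0.17 to 0.10 for IGFBP3, and size interactions over -1.56 to 1.73 for IGF2, -0.45 to 0.29 for IGF1R, -0.012 to 0.0089 for INSR, -0.34 to 0.27 for IGFBP2 and -0.13 to 0.52 for IGFBP5. Probe sets near the lower end of the scale, as those of INSR, limit what their differences show. No paired analysis applied, since the study lists each tumor under a different dog, in a single lymph node group.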

Other observations

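The genes whose main probe sets followed each member most closely over the 27 tumors, after removal of the group means, are given as a description with no test. They share the arrays and the cell makeup of the tumors. None is given for IGF2, since most of its levels were low and the others were widely spread. IGF1 was followed by FHL1 (r = 0.81), EHD4 (r = 0.80) and C1QTNF2 (r = 0.79). IGFBP4 was followed by CALD1 (r = 0.84), which codes for the actin-binding protein caldesmon, ITGB5 (r = 0.81), an integrin subunit, and COL5A2 (r = 0.80), a fibrillar collagen. IGFBP6 was followed by CXXC5 (r = 0.86), CYP27A1 (r = 0.86) and GSN (r = 0.84), the actin-severing protein gelsolin.

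IGF2R was followed by ATP2A2 (r = 0.79), the calcium pump of the endoplasmic reticulum, ZNF292 (r = 0.74) and KRTCAP2 (r = 0.72). IGF1R had the weakest partners, MACIR (r = 0.68), TIFA (r = 0.65) and DMD (r = 0.65), the gene of dystrophin. IGFBP3 was followed by C1QTNF1 (r = 0.83), ADAMTS4 (r = 0.75), a matrix protease, and MAP2K1 (r = 0.74), IGFBP2 by CDO1 (r = 0.76), SMARCA5 (r = 0.67) and TMEM131L (r = 0.67), and IGFBP5 by TNRC6B (r = 0.80), KIF5B (r = 0.79) and UBN1 (r = 0.77). The closest to INSR were OR4C136 (r = 0.82) and OR10W1 (r = 0.80), named as odorant receptors, and CNBD1 (r = 0.79), all with mean levels between 2.19 and 2.45.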
